A study of Mus musculus with 2 samples.

Results

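Small leucine-rich proteoglycans are secreted matrix proteins, and 9 of their genes were followed here through the cells of the mouse incisor. The genes were Dcn (decorin), Bgn (biglycan) and Aspn (asporin) of class I, Lum (lumican), Fmod (fibromodulin), Omd (osteomodulin), Prelp and Kera (keratocan) of class II, and Ogn (osteoglycin) of class III. They were chosen by name, as 9 of the 31053 genes of the matrix, and their levels were read in the 4775 cell barcodes that had at least 500 detected genes and at most 20% mitochondrial counts. All 9 had at least 1 count, but Aspn had 17 and Kera 6 in the cells analysed, so that little can be said of either.

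The cells came from lower-jaw incisors of 4-week-old C57BL/6 mice that received no treatment. Dental pulp and its epithelium were freed from the jaw bone and digested with collagenase, and single cells were profiled by droplet 3′ RNA sequencing, which counts each captured RNA molecule once by a unique molecular identifier (UMI). The 2 sample entries differ only in their lane number and share 1 matrix, with no map from barcodes to entries, so the data are 1 sample, without replicates, and no test was made. How many animals were pooled, and of which sex, is not given in the sources used here.

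In all 4534 cells remained after likely doublets and cells rich in haemoglobin RNA were left out, with a median of 5788.5 UMIs. Marker genes gave 2196 mesenchymal-like cells (48.4% of cells), 678 epithelial-like cells (14.95%) and 74 endothelial-like cells (1.63%), and the rest were blood and immune cells or stayed unnamed. The first 3 are called mesenchymal, epithelial and endothelial cells from here on. The tissue label reads dental mesenchyme, so the cells are of more kinds than the label names. A list of 10 mesenchymal markers summed to 1066 counts per 1000000 UMIs (CPM) in the mesenchymal cells and 31.2 CPM in the epithelial cells. The mesenchymal cells fell into 8 clusters, which go by the name of a leading gene, and the proteoglycan genes took no part in the clustering. Levels are CPM of the UMIs summed over a group, with exact 95% Poisson intervals that cover counting error only. A gene was called higher or lower where 2 groups differed at least 2-fold and held at least 30 UMIs together.

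These proteins share a core of leucine-rich repeats that binds collagen fibrils and sets their width and spacing. Decorin and biglycan carry chondroitin or dermatan sulfate chains, lumican, fibromodulin, keratocan and osteomodulin carry keratan sulfate, and asporin carries no chain. In teeth they lie in predentin, dentin, pulp and the periodontal ligament, and decorin and biglycan also bind TGF-beta.

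The family's RNA was mostly mesenchymal. Together the 9 genes had 3500.3 CPM in mesenchymal cells (3473 to 3528) and 77.1 CPM in epithelial cells (71.5 to 82.9), a log2 ratio of 5.51 (95% interval 5.40 to 5.61). The 7 members that reached 30 UMIs were all higher in mesenchymal cells by the 2-fold rule, which 22.6% of the 12830 genes measured met. Across those genes the median log2 ratio was 0.23, and across the 7 members 4.47, both on the log2(CPM + 5) scale.

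Lum, which organises collagen fibrils in many connective tissues, had the most UMIs of the family. It had 2257 CPM in mesenchymal cells and 21.9 CPM in epithelial cells, a log2 ratio of 6.69 (6.49 to 6.89), or 5.54 with doublets and haemoglobin-rich cells kept. Ogn, a class III member found in bone and vessel walls, had 147 CPM in mesenchymal cells and 1.41 CPM in epithelial cells, a log2 ratio of 6.70 (5.93 to 7.61), or 4.15 with the Krt17 cells described further on counted as epithelial. Omd, known from mineralised tissues, had 222 CPM in mesenchymal cells and 3.25 CPM in epithelial cells (log2 ratio 6.10, 5.58 to 6.66), and the ratio was 4.96 with doublets and haemoglobin-rich cells kept. B, T or NK and neutrophil-like cells, which should lack these genes, had 41.0 CPM of Lum, 5.97 CPM of Omd and 0.746 CPM of Ogn (0.0189 to 4.16), so the epithelial levels of all 3 lay below or within the range of that background.

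Dcn, which binds collagen and TGF-beta, had 566 CPM in mesenchymal cells and 20.8 CPM in epithelial cells (log2 ratio 4.77, 4.56 to 4.98). Bgn, its closest relative, had 287 CPM in mesenchymal cells and 25.7 CPM in epithelial cells (log2 ratio 3.48, 3.29 to 3.68). Fmod, which takes part in collagen cross-linking, had 17.3 CPM in mesenchymal cells and 3.14 CPM in epithelial cells (log2 ratio 2.46, 1.91 to 3.06). In B, T or NK and neutrophil-like cells Dcn had 12.7 CPM (7.39 to 20.3), Bgn 5.97 CPM (2.58 to 11.8) and Fmod 2.98 CPM. The ratios of these 3 genes lay below those of Lum, Ogn and Omd, but the order depended on the processing. With the Krt17 cells as epithelial, Ogn (4.15, 3.84 to 4.48) lay below Dcn (4.59, 4.403 to 4.78). The level in lymphoid, neutrophil and erythroid cells was also subtracted. The ratios of Dcn (10.69), Omd (9.26) and Ogn (8.79) were then set by a floor of 3 counts in epithelial cells and give no order. That level took in erythroid-like cells, with 58.8 CPM of Dcn. In B, T or NK and neutrophil-like cells alone, Dcn (12.7 CPM) and Ogn lay below their epithelial levels, so their ratios are not lower bounds under that background.

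Prelp, which can link collagen to the basement membrane proteoglycan perlecan, was scarce. It had 39 UMIs (2.17 CPM) in mesenchymal cells and 8 UMIs (0.867 CPM) in epithelial cells, a log2 ratio of 1.32 (0.21 to 2.63). That ratio was under 2-fold in 3 alternatives, at 0.99 with genes above 1% left out of the totals, 0.76 with the Krt17 cells as epithelial and 0.49 with each cell weighted equally. Aspn had 16 UMIs in mesenchymal cells and 0 in epithelial cells, and Kera, best known from the cornea, had 6 UMIs in mesenchymal cells and 0 in epithelial cells.

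**Figure D1:**
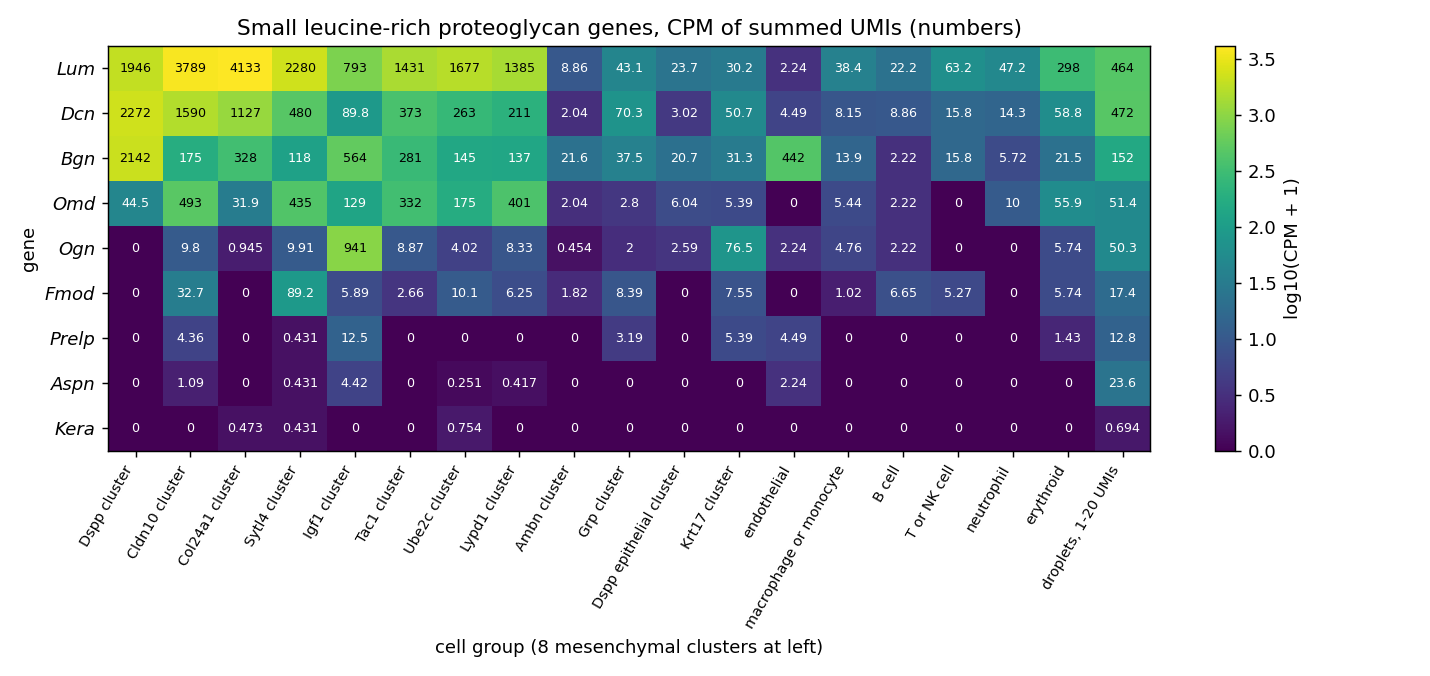
CPM of each gene (rows) in the mesenchymal clusters, then the epithelial, endothelial and blood cell groups and the near-empty droplets (columns), coloured by log10(CPM + 1) with the CPM printed. The rows differ in where they are high: Lum in every mesenchymal cluster, Ogn in the Igf1 cluster at 941 CPM, and Bgn also in endothelial cells at 442 CPM.

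Bgn was the one member with more than 2 UMIs in the endothelial cells. It had 287 CPM in mesenchymal cells and 442 CPM in endothelial cells (383 to 508), a log2 ratio of −0.62 (−0.83 to −0.41), and so was lower in mesenchymal cells, by less than 2-fold. It made up 96.6% of the 204 proteoglycan UMIs of the endothelial cells, and no single cell held more than 18 of its 197 UMIs. Lum had 40554 UMIs in mesenchymal cells and 1 in endothelial cells, and Dcn had 10173 UMIs in mesenchymal cells and 2 in endothelial cells. Omd had 222 CPM in mesenchymal cells and no UMI in endothelial cells, at least 33.0-fold higher at a floor of 3 counts.

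Of the 7 members measured against endothelium, 5 were higher in mesenchymal cells and 1 was lower, where 16.9% and 18.0% of all genes were. The lower one was Prelp, with 2.17 CPM in mesenchymal cells and 2 UMIs (4.49 CPM) in endothelial cells, and its interval of −2.998 to 2.05 includes 0. The endothelial cells had all 7 markers of their own list raised. Of 8 perivascular markers 6 were at 0 in them: Rgs5, Notch3, Kcnj8, Cspg4, Higd1b and Myh11. Abcc9 had 1 UMI and Mcam 100 UMIs (224 CPM), so the list summed to 227 CPM, against 67.9 CPM in mesenchymal cells. In endothelial cells 3 counts are 6.73 CPM, above the mesenchymal levels of Notch3 (5.12 CPM), Kcnj8 (5.51 CPM), Myh11 (5.29 CPM) and Higd1b (0.0557 CPM). The part of perivascular cells in the endothelial Bgn level was not tested.

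Shares of cells with a UMI were compared at equal depth. Each cell was thinned to 2000 UMIs, which left out 164 mesenchymal, 8 endothelial and 47 epithelial cells that were shallower. Lum was then seen in 86.9% of mesenchymal cells (exact 95% binomial interval 85.4 to 88.3) and 2.69% of epithelial cells, with 93.1% of mesenchymal cells before thinning. Dcn was seen in 44.6% of mesenchymal and 2.54% of epithelial cells. Bgn was seen in 36.0% of mesenchymal cells (33.9 to 38.2), 51.5% of endothelial cells (38.9 to 64.0) and 4.44% of epithelial cells. Omd was seen in 30.4% and Ogn in 13.3% of mesenchymal cells, against 0.792% and 0.634% of epithelial cells.

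For background, B, T or NK and neutrophil-like cells had a Lum UMI in 3.04% (1.23 to 6.17), a Dcn UMI in 1.74% and a Bgn UMI in 1.30% of cells after the same thinning. The epithelial share of Lum (1.58 to 4.28) lay below that of these cells, with overlapping intervals, and whether it is background was not tested. Before thinning, 88 of the 202 Lum UMIs of epithelial cells lay in 3 cells, as did 25 of the 33 of neutrophil-like cells. The epithelial shares of Dcn and Bgn lay above those of the B, T or NK and neutrophil-like cells, with overlapping intervals. Dcn was seen in 7.14% (3.86 to 11.9) of the cells of the epithelial Grp cluster. Erythroid-like cells, which should also lack these genes, had 21.5 CPM of Bgn (12.0 to 35.5) and a Bgn UMI in 3.49% of thinned cells (0.725 to 9.86), a range that holds the epithelial values. They are not a clean background, as they had 298 CPM of Lum, 55.9 CPM of Omd and a Lum UMI in 20.9% of thinned cells. The median depth before thinning was 7008 UMIs in mesenchymal, 9600.5 in epithelial and 4495.5 in endothelial cells. After thinning, a mesenchymal cell had a median of 2 different members, and 35.4% of them had 3 or more, against a median of 0 members in epithelial cells.

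**Figure D2:**
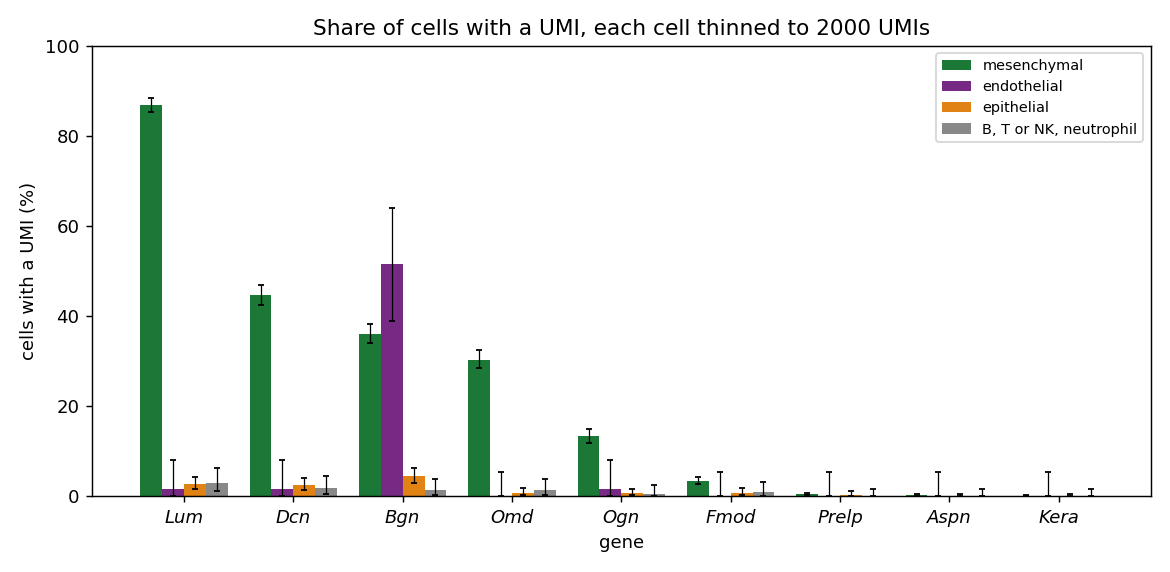
Share of cells with at least 1 UMI of each gene (y axis, percent) after thinning to 2000 UMIs, for mesenchymal, endothelial, epithelial and B, T or NK and neutrophil-like cells. Lines are exact 95% binomial intervals. Bgn is the gene with a tall endothelial bar, 51.5%, beside a mesenchymal bar of 36.0%.

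Within the mesenchyme the members had different patterns. Each of the 7 measured was at least 2-fold higher in some cluster than in the other mesenchymal cells, and 6 were with each cell weighted equally. The share of all genes that met this rule in some cluster was not counted, so the 7 cannot be judged against it. Shares for single clusters follow. Against the other mesenchymal cells, the Igf1 cluster had 3 members higher and 3 lower, where 15.3% and 9.98% of 12054 genes were. The Cldn10 cluster had 3 higher and 1 lower (4.36% and 12.9% of genes), the Dspp cluster 2 and 2 (10.1% and 18.2%), the Col24a1 cluster 2 and 4 (6.11% and 18.2%) and the Sytl4 cluster 2 and 3 (4.01% and 11.3%). The Lypd1 cluster had 1 higher and 5 lower (1.68% and 11.5%), the Ube2c cluster 0 and 4 (5.92% and 11.7%) and the Tac1 cluster 0 and 2 (2.23% and 14.8%).

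Summed over members the clusters were closer together: 6404 CPM in the Dspp cluster, 6095 CPM in the Cldn10 cluster and 5621 CPM in the Col24a1 cluster were the highest sums, and 2149 CPM in the Lypd1 cluster the lowest. The Dspp cluster held only 21 cells. Its sum was 0.89 log2 units (0.82 to 0.96) above that of the other mesenchymal cells.

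Among class I genes, Dcn was highest in the Dspp cluster, in which 5 of 7 odontoblast and 4 of 5 osteoblast markers were raised. It had 2272 CPM in the Dspp cluster, 1589.95 CPM in the Cldn10 cluster, 1127 CPM in the Col24a1 cluster, 479.9 CPM in the Sytl4 cluster, 373 CPM in the Tac1 cluster, 263 CPM in the Ube2c cluster, 211 CPM in the Lypd1 cluster and 89.8 CPM in the Igf1 cluster. Every neighbouring pair in that order differed beyond counting error. The Dspp cluster, led by Dspp, Ibsp and Bglap, was a log2 ratio of 2.07 (1.95 to 2.19) above the other mesenchymal cells, and the Cldn10 cluster, led by Cldn10, Slc20a2 and Stbd1, 1.64 (1.56 to 1.72). The Igf1 cluster was at −2.86 (−3.05 to −2.67).

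Bgn did not follow Dcn. Its top cluster was also the Dspp cluster, with 2142 CPM against 259 CPM in the other mesenchymal cells (log2 ratio 3.05, 2.92 to 3.17), and a UMI of it was found in all 21 cells. Second came the Igf1 cluster with 564 CPM, where Dcn was lowest, then the Col24a1 cluster with 328 CPM and the Tac1 cluster with 281 CPM. The Cldn10 cluster, second for Dcn, had 175 CPM of Bgn. The Ube2c cluster (145 CPM), the Lypd1 cluster (137 CPM) and the Sytl4 cluster (118 CPM) closed the order, and those neighbours did not differ beyond counting error.

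Aspn, an inhibitor of TGF-beta signalling known from the periodontal ligament, had 12 of its 16 mesenchymal UMIs in the Igf1 cluster, 4.42 CPM (2.28 to 7.72). Of the other clusters 4 had 1 UMI each and 3 had none.

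In class II, Lum was present in every cluster but not evenly. The Col24a1 cluster had 4133 CPM, the Cldn10 cluster 3789 CPM, the Sytl4 cluster 2280.5 CPM and the Dspp cluster 1946 CPM. The Ube2c cluster had 1677 CPM, the Tac1 cluster 1431 CPM, the Lypd1 cluster 1385 CPM and the Igf1 cluster 793 CPM, and the Tac1 and Lypd1 clusters did not differ beyond counting error. In the Col24a1 cluster, in which 3 of 7 odontoblast markers were raised, the median cell had 35 Lum UMIs and all 354 cells had at least 1. That cluster was at a log2 ratio of 1.30 (1.27 to 1.33) against the other mesenchymal cells. In the best-matching cluster at a finer resolution the ratio was 0.71, and with the members and listed genes used for clustering it was 0.78, both under 2-fold.

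Fmod was concentrated in 1 cluster. The Sytl4 cluster, led by Sytl4, Nell2 and Rdh10, had 207 of the 311 mesenchymal Fmod UMIs, 89.2 CPM (77.4 to 102). That cluster was at a log2 ratio of 3.75 (3.40 to 4.10) against the other mesenchymal cells, and 28.0% of its cells had a UMI. The Cldn10 cluster had 32.7 CPM, of which 21 of 30 UMIs lay in 3 cells. The Ube2c cluster had 10.1 CPM, and the Lypd1, Igf1 and Tac1 clusters had 6.25, 5.89 and 2.66 CPM, and from the Ube2c to the Tac1 cluster no neighbours in the order differed beyond counting error. The Col24a1 cluster, the one with most Lum, had 0 Fmod UMIs among 4232782, which allows at most 0.709 CPM at a floor of 3 counts.

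Omd had yet another order, with 4 clusters high and 2 low. The Cldn10 cluster had 493 CPM, the Sytl4 cluster 435 CPM, the Lypd1 cluster 401 CPM and the Tac1 cluster 332 CPM. The Ube2c cluster had 175 CPM and the Igf1 cluster 129 CPM. The Dspp cluster had 44.5 CPM and the Col24a1 cluster 31.9 CPM, and both were among the 3 clusters highest in Dcn. The Col24a1 cluster was at a log2 ratio of −3.14 (−3.40 to −2.89) against the other mesenchymal cells. The Cldn10 cluster was 1.25 (1.10 to 1.39) above them, a value that came to 0.98 with each cell weighted equally. The Sytl4 and Lypd1 clusters did not differ beyond counting error, and nor did the Dspp and Col24a1 clusters.

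Prelp had 34 of 39 mesenchymal UMIs in the Igf1 cluster, 12.5 CPM (8.67 to 17.5), at a log2 ratio of 5.25 (3.89 to 6.97) against the other mesenchymal cells. The ratio ran between 4.31 with each cell weighted equally and 7.56 with a 10% mitochondrial limit. Of these 34 UMIs 13 lay in 3 cells. Kera had 3 UMIs in the Ube2c cluster, 2 in the Col24a1 cluster and 1 in the Sytl4 cluster.

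The class III gene Ogn marked a single cluster. The Igf1 cluster had 2555 of the 2637 mesenchymal UMIs, 941 CPM (904 to 978), and no other cluster had more than 9.91 CPM. Its log2 ratio against the other mesenchymal cells was 7.45 (7.13 to 7.79), 6.66 with the members and listed genes used for clustering and 5.69 in the best-matching cluster at a finer resolution. In that cluster 82.2% of cells had an Ogn UMI, with a median of 5 UMIs a cell. Among the other clusters the Sytl4, Cldn10, Tac1 and Lypd1 clusters (9.91, 9.80, 8.87 and 8.33 CPM) did not differ beyond counting error. The Dspp cluster had 0 of 269852 UMIs, which allows at most 11.1 CPM.

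The Igf1 cluster is led by Igf1, Igfbp3, Tagln, Dpep1 and Acta2 and had 5 of 7 dental follicle markers raised. The sum of the 7 was not high in it, at 3259 CPM against 4532 CPM in all mesenchymal cells. That sum was 7102 CPM in the Tac1 cluster and 5718 CPM in the Lypd1 cluster. Other cell types were looked for in the Igf1 cluster in the same way. Of 8 perivascular markers 7 had a UMI there, as 8 had in the Sytl4 cluster and 7 in the Ube2c cluster. The list summed to 199 CPM in the Igf1 cluster and 67.9 CPM in all mesenchymal cells. Rgs5 was at 64.1 CPM against 10.3 CPM in all mesenchymal cells, and Abcc9, Myh11, Kcnj8 and Mcam were also higher. Notch3 was near level (5.52 against 5.12 CPM), and Cspg4 was lower (13.3 against 27.6 CPM). In the Igf1 cluster 5 connective tissue fibroblast markers summed to 8.47 CPM, with Dpp4 and Clec3b at 0, and 3 ligament or tendon markers to 76.9 CPM. The part of these cell types in its Ogn, Bgn and Prelp levels was not tested. The 3 members called higher in the Igf1 cluster were Ogn, Bgn and Prelp, and the 3 called lower were Dcn, Lum and Fmod.

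**Figure D3:**
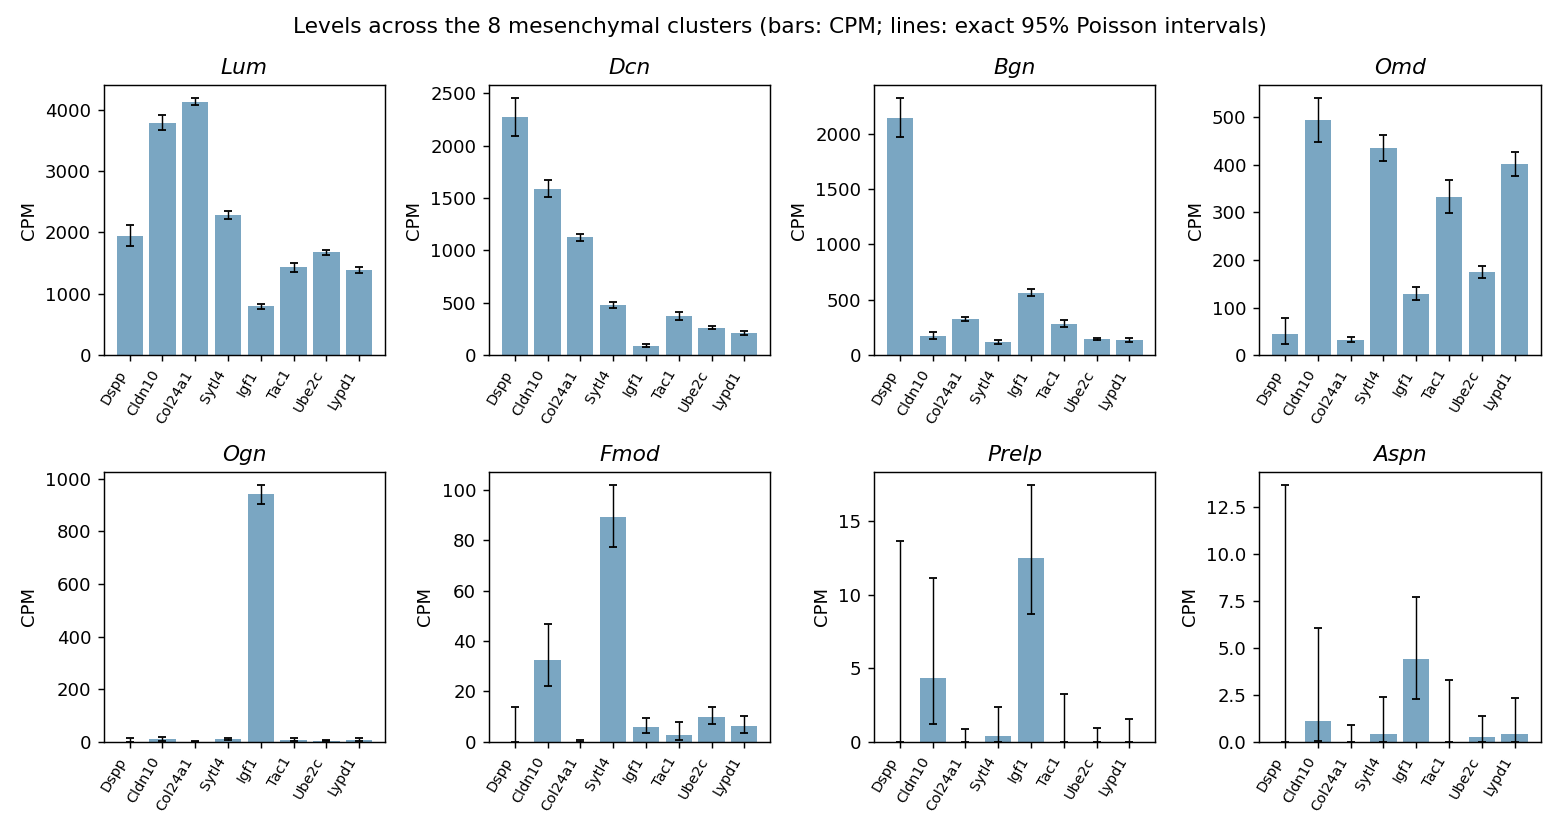
CPM (y axis, linear, from 0) of 8 genes in the 8 mesenchymal clusters (x axis), with exact 95% Poisson intervals as lines. Ogn, Prelp and Aspn are highest in the Igf1 cluster, Fmod in the Sytl4 cluster, Bgn in the Dspp cluster, and Omd is lowest in the Col24a1 cluster.

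The make-up of the family's UMIs differed accordingly. These are counts of 3′ tags with no division by length, so shares between genes also carry differences in capture that were not measured. Lum made up 73.5% of the family's UMIs in the Col24a1 cluster and 73.7% in the Ube2c cluster. In the Igf1 cluster Ogn made up 37.1%, Lum 31.2% and Bgn 22.2%. In the Dspp cluster Dcn (35.5%), Bgn (33.4%) and Lum (30.4%) were nearly level. Omd made up 18.7% in the Lypd1 cluster and 0.567% in the Col24a1 cluster.

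**Figure D4:**
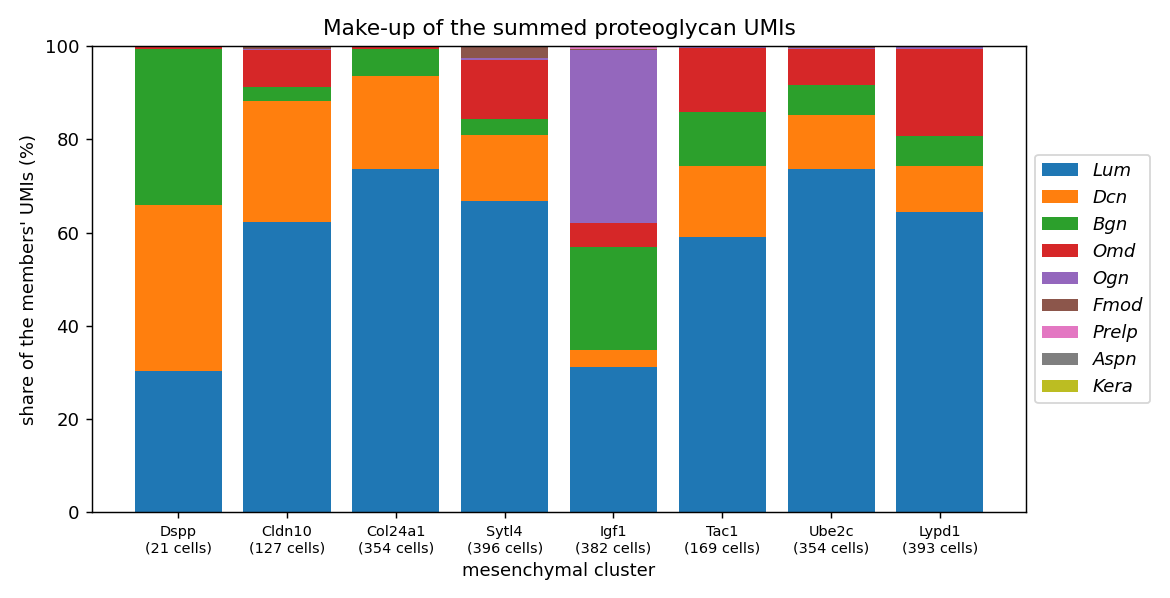
Share of the family's summed UMIs (y axis, percent) held by each gene in the 8 mesenchymal clusters (x axis, with cell numbers). Lum takes most of 6 bars, Ogn enters in the Igf1 cluster at 37.1%, and Dcn, Bgn and Lum share the Dspp bar.

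Pairs of members were described across the 2196 mesenchymal cells and across the 8 clusters, which share 1 library, so no p-value is given. Dcn and Lum went together most, with a Pearson correlation of 0.55 across cells, 0.42 after thinning and 0.81 across clusters. Correlations within single clusters were taken in 7 of them, without the Dspp cluster. For Dcn and Lum these ran between 0.11 and 0.47. Across cells Ogn was at −0.29 with Dcn and −0.29 with Lum, but within single clusters it ran between −0.04 and 0.19 with Dcn and between −0.06 and 0.38 with Lum. Ogn and Bgn were at 0.28 across cells, 0.17 after thinning and 0.08 across clusters, and between −0.22 and 0.06 within single clusters. Fmod and Omd were at 0.72 across clusters and 0.04 across cells, and Bgn and Omd at −0.72 across clusters and −0.15 across cells.

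Outside the family, the genes whose levels were most like each member's over 26 cell groups were sought among 11870 genes. For Lum they were Hand2 (Pearson correlation 0.96), Gm34030 and Chn1. For Omd they were Frzb (0.96), Rspo4 and Plppr1. For Bgn they were Timp1 (0.94), Fkbp7 and Dchs1. For Ogn they included Pmch (0.93) and Dlk2, for Dcn they were Abca4 (0.95), Insc and Lurap1l, and for Fmod Fam19a5 (0.83), Sim2 and Sytl4. Group sizes and depths differ and the groups share 1 library, so these are descriptions.

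Several members are neighbours in the genome (mm10, GENCODE M21). Aspn (chr13:49544443-49567565), Omd (chr13:49582462-49592822) and Ogn (chr13:49608046-49624501) lie in a row on the plus strand, with gaps of 14.9 and 15.2 kb. Dcn (chr10:97479609-97518143), Lum (chr10:97565128-97572703) and Kera (chr10:97606879-97613692) lie in a row with gaps of 47.0 and 34.2 kb. Prelp (chr1:133910304-133921414) and Fmod (chr1:134037254-134048277) are 116 kb apart on opposite strands, and Bgn is alone at chrX:73483602-73495933. No coding gene lies wholly within any of these gaps.

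Neighbours differed in where they were high. Ogn had 941 CPM in the Igf1 cluster and 9.91 CPM in the Sytl4 cluster, and Omd had 129 CPM in the Igf1 cluster and 435 CPM in the Sytl4 cluster. Over the 26 cell groups Dcn was the member most like Lum (Pearson correlation 0.94), while Kera, next to Lum, had 6 UMIs in cells. Aspn, Omd and Ogn lie inside Cenpp on the opposite strand, which had 465 UMIs in cells, 55.5 CPM in the cycling Ube2c cluster and 11.8 CPM in the Igf1 cluster. Whether counting used strand is not given in the labels or headers, so how reads were split there is not known.

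The 250 bases before the start of 7 of the 9 genes are in the RefSeq promoter table (GRCm38.p6), and the windows of the 3 chromosome 13 neighbours and of Fmod are shown because their cluster patterns differ. Capitals mark TATAAA or TGTGGT, the RUNX core, on either strand, and no TATAAA match overlaps a TGTGGT match. Matches are descriptions of the letters and were not tested as sites.
Aspn, chr13:49544193-49544442, plus strand: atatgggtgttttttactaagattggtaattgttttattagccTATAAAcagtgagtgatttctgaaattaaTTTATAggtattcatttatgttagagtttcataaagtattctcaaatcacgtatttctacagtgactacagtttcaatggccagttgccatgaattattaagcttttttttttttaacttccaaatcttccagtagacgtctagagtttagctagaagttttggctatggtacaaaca
Omd, chr13:49582212-49582461, plus strand: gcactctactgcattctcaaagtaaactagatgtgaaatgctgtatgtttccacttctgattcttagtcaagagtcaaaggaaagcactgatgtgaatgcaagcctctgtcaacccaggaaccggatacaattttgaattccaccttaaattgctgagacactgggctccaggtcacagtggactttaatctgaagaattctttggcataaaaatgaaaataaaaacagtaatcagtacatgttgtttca
Ogn, chr13:49607765-49608014, plus strand: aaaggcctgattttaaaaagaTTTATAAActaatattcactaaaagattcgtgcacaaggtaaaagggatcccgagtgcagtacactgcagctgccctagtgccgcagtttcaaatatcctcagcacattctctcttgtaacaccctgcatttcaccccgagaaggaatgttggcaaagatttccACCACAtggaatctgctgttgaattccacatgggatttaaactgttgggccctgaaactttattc
Fmod, chr1:134037004-134037253, plus strand: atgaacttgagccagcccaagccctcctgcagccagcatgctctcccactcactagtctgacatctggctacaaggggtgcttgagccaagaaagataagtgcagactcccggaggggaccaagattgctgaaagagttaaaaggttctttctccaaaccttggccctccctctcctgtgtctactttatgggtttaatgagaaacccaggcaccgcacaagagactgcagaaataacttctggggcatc

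The Aspn window holds 2 TATAAA matches, the Ogn window 2 overlapping ones and 1 TGTGGT match, and the Omd and Fmod windows hold none. TATAAA is in 12.4% and TGTGGT in 14.0% of 32851 such windows. The windows of Aspn (30.0% GC), Omd (38.4%) and Ogn (42.0%) lie below the median of all windows, 52.4%, and those of Prelp (55.6%) and Bgn (64.4%) above it. The Ogn window has 4 CpG and the Omd window 1, against a median of 6.

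The genes that make, modify and meet these proteins were taken from 9 lists of 95 genes. Against epithelial cells 41 of the 76 measured were at least 2-fold higher in mesenchymal cells and 9 lower, where 22.6% and 10.0% of all genes were. Of 14 fibrillar and fibril-associated collagens measured 11 were higher and 2 lower, with a median log2 ratio of 2.87. Col1a1, the main dentin collagen, had 8825 CPM in mesenchymal cells and 49.8 CPM in epithelial cells, and Col3a1 had 1103 CPM in mesenchymal cells and 12.4 CPM in epithelial cells. Of 13 genes of cross-linking and fibril assembly 8 were higher and 1 lower, among them the procollagen C-proteinase enhancer Pcolce (log2 ratio 6.06) and the lysyl oxidase Lox (6.73).

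The lists of enzymes that build the sugar chains had median log2 ratios between 0.03 and 0.58. Of 7 linkage enzymes 1 was higher and none lower. Of 14 chondroitin and dermatan chain enzymes 6 were higher and 3 lower. Chst13, a chondroitin sulfotransferase, had 21.9 CPM in mesenchymal cells and 0.108 CPM in epithelial cells. Of 5 keratan chain enzymes 1 was higher and 1 lower: Chst2 had 13.3 CPM in mesenchymal cells and 0.867 CPM in epithelial cells. Chst1, the keratan sulfate sulfotransferase, had 7.29 CPM in mesenchymal cells and 477 CPM in epithelial cells, a log2 ratio of −6.03 (−6.29 to −5.78).

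Of 10 proteases known to cut these proteins 8 were higher in mesenchymal cells and 2 lower. Mmp2 had 283 CPM in mesenchymal cells and 2.82 CPM in epithelial cells, and the enamel protease Mmp20 had 9.07 CPM in mesenchymal cells and 1157 CPM in epithelial cells. Of 4 other leucine-rich proteoglycans 2 were higher, Podnl1 (log2 ratio 5.29, 2.76 to 10.61) and Ecm2, which had 78 UMIs in mesenchymal cells and none in epithelial cells. Of 6 large and basement membrane proteoglycans 3 were higher, with Vcan at 339 CPM in mesenchymal cells and 44.5 CPM in epithelial cells. Of 3 TGF-beta ligands Tgfb1 was higher, at 137 CPM in mesenchymal cells and 68.4 CPM in epithelial cells.

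Against endothelial cells 10 of 11 collagens measured were higher in mesenchymal cells and none lower, where 16.9% and 18.0% of all genes were. Hspg2, the perlecan gene, had 81.0 CPM in mesenchymal cells and 646 CPM in endothelial cells. Of 4 keratan chain enzymes 3 were lower and none higher.

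Several listed genes differed between the Ogn-rich Igf1 cluster and the Lum-rich Col24a1 cluster. In the Igf1 cluster 6 of 11 collagens were higher than in the other mesenchymal cells and 2 lower, where 15.3% and 9.98% of all genes were, with Col3a1 at 6347 CPM in the Igf1 cluster and 169 CPM in the other mesenchymal cells. Of 9 proteases 6 were higher and 1 lower, among them Adamts5 and Mmp9. Adamts5 had 133 CPM in the Igf1 cluster and 3.28 CPM in the other mesenchymal cells, and Mmp9 had 108 CPM in the Igf1 cluster and 0.393 CPM in the other mesenchymal cells. The thrombospondin Thbs2 had 499.9 CPM there and 6.36 CPM in the other mesenchymal cells. Dse, which makes the iduronic acid of dermatan sulfate, had 60.4 CPM in the Igf1 cluster and 10.2 CPM in the other mesenchymal cells, while Chst13 had 0 UMIs in the Igf1 cluster. Col3a1 and Thbs2 were lower in the Col24a1 cluster. Col3a1 had 49.1 CPM in the Col24a1 cluster and 1428 CPM in the other mesenchymal cells, and Thbs2 had 2.84 CPM in the Col24a1 cluster and 105 CPM in the other mesenchymal cells. Chst13 had 75.6 CPM in the Col24a1 cluster against 5.32 CPM in the other mesenchymal cells. In the Dspp cluster, highest in Dcn, 6 of 11 collagens were higher and 5 lower (10.1% and 18.2% of all genes).

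A few epithelial cells held most epithelial UMIs of some members. Dcn had 70.3 CPM in the Grp cluster, with 109 of its 176 UMIs in 3 cells, against 2.38 CPM in the other epithelial cells. The Krt17 cluster held 92 cells with all 8 epithelial markers raised, and was left unnamed because its 10 leading genes held more markers of another cell type than epithelial ones. It had 71 Ogn UMIs (76.5 CPM), of which 56 lay in 3 cells. It had 47 Dcn UMIs, of which 46 lay in 3 cells. The 10 mesenchymal markers summed to 69.5 CPM in the Grp cluster and 75.5 CPM in the Krt17 cluster, with 1 and 3 of them at 0. Their part in these values, and that of undetected doublets, was not tested.

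The ratio of Dcn to Lum UMIs differed between these groups. It was 1.63 in the Grp cluster and 1.68 in the Krt17 cluster, 0.251 in mesenchymal cells and 0.309 in B, T or NK and neutrophil-like cells. It was 0.197 in erythroid-like cells, which had 298 CPM of Lum. The ratios of the Grp and Krt17 clusters rest largely on the few cells that held most of their Dcn UMIs. In the Grp cluster 85 of the 108 Lum UMIs also lay in 3 cells.

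Near-empty droplets, 1465970 of them with 1 to 20 UMIs, were read as a measure of free RNA. Their levels are not the background that cells carried, since Lum had 464 CPM in droplets but 21.9 CPM in epithelial cells. Erythroid markers made up 95306.5 CPM of the droplets. Lum had 2257 CPM in mesenchymal cells and 464 CPM in droplets, and Omd had 222 CPM in mesenchymal cells and 51.4 CPM in droplets. Ogn had 147 CPM in mesenchymal cells and 50.3 CPM in droplets, and Bgn had 287 CPM in mesenchymal cells and 152 CPM in droplets. Dcn was closer, at 566 CPM in mesenchymal cells (555 to 577) and 472 CPM in droplets (447 to 498). Fmod, with 17.3 CPM in mesenchymal cells and 17.4 CPM in droplets (12.9 to 22.9), was level between them, while its Sytl4 cluster lay above the droplets. The Dcn-to-Lum ratio was 0.251 in mesenchymal cells and 1.02 in the droplets.

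Aspn and Prelp were higher in those droplets than in the mesenchymal cells. Aspn had 0.891 CPM in mesenchymal cells and 23.6 CPM (18.3 to 29.9) in droplets, which held 68 of its 125 UMIs in the whole matrix. Prelp had 2.17 CPM in mesenchymal cells and 12.8 CPM (9.04 to 17.7) in droplets. The 5 connective tissue fibroblast markers showed the same direction, at 1.61 CPM in mesenchymal cells and 182 CPM in droplets, with Pi16 at 57.3 CPM and Clec3b at 35.4 CPM in droplets. In endothelial cells the list summed to 1490.4 CPM, nearly all from Ly6c1 (830.5 CPM) and Cd34 (649 CPM). Other lists were higher in droplets too: endothelial (25.7 and 108 CPM), epithelial (36.0 and 277 CPM) and erythroid markers (897 and 95306.5 CPM). The ligament or tendon list went the other way as a sum, at 24.3 CPM in mesenchymal cells and 10.1 CPM in droplets. Only Mkx carried that direction (19.1 and 2.78 CPM). Tnmd was higher in droplets (4.56 and 6.59 CPM) and Scx was near level (0.668 and 0.694 CPM). The sums of the mesenchymal, perivascular, cycling, dental follicle and odontoblast lists were also higher in mesenchymal cells. Within the perivascular list Rgs5 (10.3 and 23.6 CPM), Myh11, Mcam and Higd1b were higher in droplets, and Notch3, Kcnj8, Abcc9 and Cspg4 lower. Where the droplet RNA of Aspn, Prelp and the marker genes came from was not tested.

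**Figure D5:**
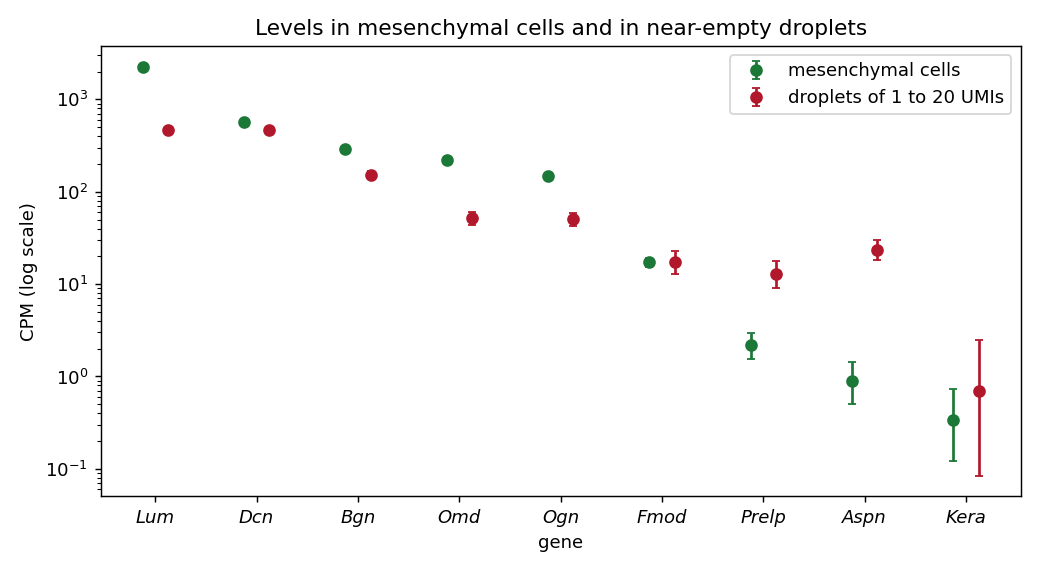
CPM (log axis) of each gene in mesenchymal cells and in droplets of 1 to 20 UMIs, with exact 95% Poisson intervals. Lum lies above the droplets, Fmod level with them, and Aspn below them at 0.891 CPM in cells and 23.6 CPM in droplets.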

How the data were processed

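The authors deposited an unfiltered matrix of raw UMI counts per gene and barcode. Per the submitters' processing notes the build was mm10, and R 3.4.1 and Seurat 3.4.1 were named. The sources used here name no aligner. The matrix holds 68931830 UMIs in 1546436 barcodes, of which 50.2% lay in the cells analysed. Barcodes with at least 500 genes and at most 20% mitochondrial UMIs were kept (4775 of 5336). Scrublet in scanpy 1.11.5 called 1 doublet by itself, so a score above 0.15 was used (122 cells), and 119 cells with over 5% haemoglobin UMIs outside erythroid clusters were left out. Leiden clustering (2000 variable genes, 30 components, resolution 1.0, and 0.5 within mesenchyme) left out the 9 members, the 95 listed genes and mitochondrial genes. A cluster was called X-like where at least 3 markers were raised and no other type had more markers among its 10 leading genes. Genes named are all members, the 2 to 4 listed genes with the largest ratios, the 3 genes most like each member and the leading genes. Of the genes this rule gives, 1 is not reported here. Marker genes, and genes overlapping members, were named after their values were seen. Ratios carry exact conditional binomial intervals. The ratio and call steps were tested on simulated counts. The members and lists were chosen with earlier results of these data known.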

Additional observations from a re-analysis of the deposited data

Results flagged for a closer look

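Aspn stood out in barcodes that no comparison of cells used. In droplets of 1 to 20 UMIs it had 23.6 CPM, and in barcodes of 21 to 100 UMIs 16.2 CPM, and the lower bounds of both intervals (18.3 and 9.45 CPM) lay above its level in the mesenchymal cells (0.891 CPM) and in the Igf1 cluster, which had the highest level of the 26 cell groups at 4.42 CPM (2.28 to 7.72). Most of the other groups had no Aspn UMI, with upper limits of up to 44.9 CPM in the Hs3st1 cluster, so groups of low depth are not shown to lie below the droplets. The source of this RNA was not tested.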

How the results depend on the processing

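No paired analysis was possible because the 2 sample entries share 1 matrix with no map from barcodes to entries, so there is no replicate and no test. All 7 measured members stayed higher in mesenchymal than epithelial cells under every alternative but 3, which gave 6 (genes above 1% left out of the totals, each cell weighted equally, and the Krt17 cluster counted as epithelial, an alternative added after seeing the data). The summed log2 ratio of mesenchymal over epithelial cells, 5.51, came to 4.88 with doublets and haemoglobin-rich cells kept, 5.18 with genes above 1% left out of the totals, 5.36 with equal cell weights and 5.30 with the Krt17 cells. It came to 13.31, a value set by a floor of 3 counts, once the level in lymphoid, neutrophil and erythroid cells (198.8 CPM) was subtracted. That level took in erythroid-like cells at 447 CPM. B, T or NK and neutrophil-like cells alone had 69.4 CPM, below the 77.1 CPM of epithelial cells, so 13.31 is not a lower bound under that background. Over endothelial cells 2.93 came to 2.24 with doublets and haemoglobin-rich cells kept and 3.67 after subtraction. The top cluster's sum, 0.89, came to 1.15 without genes above 1% and 1.01 with equal weights. No direction reversed. With the Krt17 cells the ratio of Ogn came to 4.15, against 6.70. Depth limits Aspn, Kera and Prelp, and the Dspp cluster rests on 21 cells.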
